A study of Mus musculus with 4 samples.

Results

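The proteasome genes of mouse early blastocysts were compared between embryos from in vitro fertilization (IVF) and embryos from nuclear transfer of a somatic cell (SCNT), where an oocyte receives the nucleus of a body cell in place of its own. Members were the genes whose symbol begins with Psm, a letter from a to g and a digit, and 49 of the 23235 symbols in the table met this. They comprised 19 core genes (Psma and Psmb), 21 cap genes (Psmc and Psmd) and 9 genes of activators, an inhibitor and assembly chaperones (Psme, Psmf and Psmg). Each group had 2 libraries, and each library held 6 embryos lysed together 96 hours after fertilization or activation. IVF embryos came from Xist KO oocytes on a 129S1/Svj background and wild-type sperm of CAST/EiJ. For SCNT, fibroblasts were taken from embryos of Xist KO mothers (129S1/SvImj) and CAST/EiJ fathers, were heterozygous for the knockout, and were placed in oocytes of B6D2F1/J females. Both groups are thus described as carrying the knockout from the 129S1 parent. The column headers of the SCNT files also carry the name kdm4d, a histone demethylase gene, and the meaning of that tag was not given in the sources used here. Whether libraries of 1 group had separate parents or culture days is not stated. Each p-value thus sets a group difference only against the spread between these libraries, and that spread may be technical.

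The proteasome is the protease that degrades most proteins tagged with ubiquitin in the cytosol and nucleus. Its barrel-shaped core particle stacks outer rings of alpha subunits on inner rings of beta subunits, and 3 of the beta subunits cut the substrate. A regulatory cap on the barrel's end binds the ubiquitin chain, removes it, and unfolds and threads the substrate with a ring of ATPases. Dedicated chaperones build both pieces, and other activators can take the place of the cap. In early embryos the proteasome clears maternal proteins inherited from the oocyte.

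Values were taken to be FPKM, fragments scaled by transcript length and by library size, which allows levels to be compared between genes. The depth in reads is unknown, so counting error cannot be given. FPKM summed to between 933167 and 985197 per library, and 10802 to 10923 genes per library reached 1 FPKM. Blastocyst markers were present, since all 7 trophectoderm markers, all 6 of the inner cell mass and epiblast, and 4 of 5 of primitive endoderm had a mean of at least 1 FPKM. Of the trophectoderm markers, 3 were higher in SCNT at an unadjusted limma p under 0.05, as were 4.25% of all genes tested, and none passed after adjustment. The 7 markers together summed to 4363 and 3577 FPKM in IVF and 5971 and 3904 FPKM in SCNT. Their part in the results below was not tested. Fibroblast markers, those of the donor cells, summed to 1.88 and 0.513 FPKM in IVF and to 5.77 and 0.425 FPKM in SCNT, with Twist2 at 0 in all 4 libraries, cumulus and granulosa markers summed to at most 0.617 FPKM with Ptx3, Amh and Cyp19a1 at 0, and oocyte markers summed to at most 3.54 FPKM. MicroRNA and small nucleolar RNA genes took 12.4% and 12.2% of summed FPKM in IVF and 9.50% and 9.73% in SCNT, which moved with the groups beside every result here, and its part in them was not tested. In such bulk samples, fewer cells of a type and less RNA per cell cannot be told apart.

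No proteasome gene passed the test between SCNT and IVF. The test was limma on log2(FPKM + 1) over the 11039 genes with a mean of at least 1 FPKM, with Benjamini-Hochberg adjustment over all of them and a threshold of 0.05. It covered 48 of the 49 members, and all passed the level filter except Psmb8. Of these, 0 had an adjusted p under 0.05, against 0.127% of all tested genes, and 0 had an unadjusted p under 0.05, against 4.25% of all genes as higher and 2.84% as lower. The largest differences on the log2(FPKM + 1) scale were 0.35 for Psmb9 and -0.29 for Psma5, and the smallest adjusted p was 0.852, for Psmf1. All 48 of the 95% intervals included 0, with a median half-width of 0.58, so differences of that size lay within the error of these libraries. In 36 of 48 members the difference was smaller than its own standard error.

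Within those limits most estimates lay below 0. They did so for 37 of the 48 tested members (77.1%), against 47.8% of all tested genes and 39.3% of the 1238 tested genes with a mean of at least 100 FPKM. By symbol they were below 0 for 16 of 18 core genes, 18 of 21 cap genes and 3 of 9 activators, inhibitor and chaperones. The finished particle holds 31 of the members, 14 in the core and 17 in the cap, once tissue-restricted and inducible forms, chaperones and a gene that is no subunit are set aside, a division made after the values were seen. Of these 31, 30 had estimates below 0, a count that this division favours. Their median difference was -0.14, and that of all tested members was -0.09, with 0.01 over all tested genes and 0.05 over the abundant ones. As the symbols define the groups, the medians were -0.10 for the 18 tested core genes, -0.12 for the 21 cap genes and 0.03 for the 9 activators, inhibitor and chaperones. Both SCNT libraries lay below both IVF libraries for 8 members, against 15.1% of all tested genes, and above both for 2, against 18.3%. The count of 8 in 48 is near the share of all genes, and the share among abundant genes was 8.16%. After scaling to a common sum without the short RNA genes the split was 14 lower and 2 higher, and after quantile normalization 16 lower and 3 higher. These scalings also moved the whole table, with estimates below 0 for 56.6% and 50.4% of all tested genes. The shares of all tested genes without overlap at these settings are not given, so the counts of 14 and 16 have no background to be read against.

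The libraries also differed by number within each group, for core genes by more than the groups did. Core genes of the particle were higher in the library numbered 2 by a median of 0.40 in IVF and 0.40 in SCNT, and cap genes by 0.12 and 0.24. All tested genes had medians of -0.04 and -0.02, but those with a mean of at least 100 FPKM had 0.17 in IVF and 0.14 in SCNT. The meaning of the number was not given in the sources used here. Between libraries numbered 1, the 31 subunits had a median SCNT minus IVF difference of -0.18, and between those numbered 2 of -0.11. SCNT was below IVF at both numbers for 27 of the 48 tested members and 24 of the 31, against 30.1% of all tested genes and 25.4% of the abundant ones. SCNT was above at both for 7 of the 48 and 0 of the 31, against 3730 of 11039 tested genes and 528 of 1238 abundant ones. The count of 30 estimates below 0 depended on this balance. It was 30 without IVF library 1 and 31 without SCNT library 2, but 17 without IVF library 2 and 17 without SCNT library 1, which leaves unlike numbers in the groups.

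**Figure D1:**
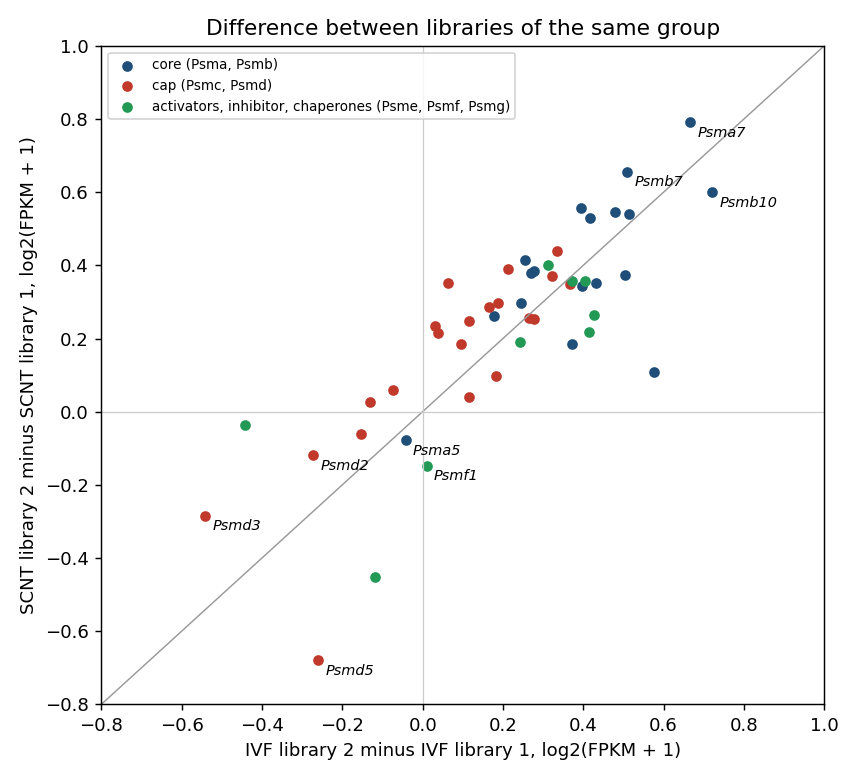
Each point is a tested Psm gene, with the difference between the 2 IVF libraries on the horizontal axis and between the 2 SCNT libraries on the vertical axis, both in log2(FPKM + 1). The grey diagonal marks equal differences. Most genes lie in the upper right, where library 2 was higher in both groups, with Psma7 at 0.67 and 0.79.

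The alpha ring forms the gate through which substrates enter. All 7 of its ubiquitous genes had estimates below 0, with a median of -0.16. Psma5 had 347 and 337 FPKM in the IVF libraries and 287 and 272 FPKM in the SCNT libraries, so both SCNT libraries were lower by a margin wider than the gap within either group. Its difference was -0.29 ± 0.18 (SE) (95% interval -0.76 to 0.18, limma adjusted p = 0.8995). Psma7 was the most abundant alpha gene, with 1023 and 1625 FPKM in the IVF libraries and 923 and 1598 FPKM in the SCNT libraries. Ranges of Psma7 in the groups overlapped almost wholly, and library 2 exceeded library 1 in each group. Psma2 had 463 and 662 FPKM in IVF against 390.5 and 569 FPKM in SCNT, and Psma6 had 481 and 579.6 FPKM in IVF against 400.1 and 521 FPKM in SCNT. For both genes the order of the 4 libraries was the same, with IVF 2 highest and SCNT 1 lowest. Psma4 had 347 and 392.3 FPKM in IVF against 306 and 367 FPKM in SCNT, a difference of -0.14. The remaining genes, Psma1 and Psma3, differed by -0.16 and -0.01. Within the ring the most abundant gene exceeded the least abundant one by 4.44 and 5.06 times in IVF and by 4.14 and 5.87 times in SCNT, although the assembled ring holds equal numbers of each subunit.

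The beta ring holds the active sites. Its structural members were Psmb1 to Psmb4, and 3 of these 4 had estimates below 0. Psmb3 was the most abundant beta gene, with 1030 and 1355 FPKM in the IVF libraries and 855 and 1259 FPKM in the SCNT libraries. Psmb4 had 474 and 575 FPKM in IVF against 392.1 and 512 FPKM in SCNT, and Psmb2 had 708 and 932 FPKM in IVF against 666 and 845 FPKM in SCNT. In all 3 genes the SCNT 1 library was lowest and the IVF 2 library highest, with the groups overlapping. Psmb1 had an estimate above 0, a difference of 0.02. Among the 7 ubiquitous beta genes, the most abundant exceeded the least abundant by 5.09 and 4.70 times in IVF and 4.80 and 4.47 times in SCNT.

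The 3 constitutive catalytic genes had a median difference of -0.05, nearer to 0 than the medians of the alpha genes and of the structural beta genes (-0.15). Psmb5, which carries the chymotrypsin-like site, had 782 and 934 FPKM in the IVF libraries and 729 and 972 FPKM in the SCNT libraries. Psmb6, with the caspase-like site, had 697 and 931 FPKM in the IVF libraries and 649 and 936 FPKM in the SCNT libraries. Psmb7, with the trypsin-like site, had 202 and 288 FPKM in the IVF libraries and 178 and 282 FPKM in the SCNT libraries. Differences were -0.02 ± 0.25 (SE), -0.05 ± 0.29 (SE) and -0.11 ± 0.31 (SE), none larger than the spread between replicates, and the groups overlapped for each. Psmb7 was the least abundant of the 3 in every library.

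Interferon-inducible counterparts can replace the catalytic subunits and give the immunoproteasome, which favours peptides that fit MHC class I molecules. They were unequal in these embryos. Psmb8, the counterpart of Psmb5, was listed at 0 in 3 libraries and at 0.173 FPKM in IVF 2, and was not tested. Psmb10, the counterpart of Psmb7, had 12.03 and 20.5 FPKM in the IVF libraries and 11.8 and 18.3 FPKM in the SCNT libraries, a difference of -0.09 ± 0.34 (SE). Psmb9, the counterpart of Psmb6, was the most abundant of the 3 with 35.3 and 50.5 FPKM in the IVF libraries and 47.3 and 61.5 FPKM in the SCNT libraries. The ranges of Psmb9 overlapped slightly, since IVF 2 exceeded SCNT 1, and within each number SCNT was higher. Its difference was 0.35 ± 0.26 (SE) (95% interval -0.31 to 1.0, limma adjusted p = 0.954), with 0.41 between the libraries numbered 1 and 0.28 between those numbered 2. As a share of Psmb6 FPKM in the same library, a ratio chosen after the values were seen, Psmb9 stood at 5.07% and 5.42% in IVF and 7.29% and 6.57% in SCNT. The same ratio for the other pair, Psmb10 to Psmb7, was 5.942% and 7.097% in IVF and 6.598% and 6.516% in SCNT. Both SCNT libraries thus lay between the IVF libraries. With 2 libraries against 2 an exact permutation test cannot go below p = 0.333, and neither ratio was given a test. All inducible forms together made up 2.74% and 3.20% of the catalytic beta FPKM in IVF and 3.66% and 3.52% in SCNT. Of these forms Psmb9 was higher in SCNT at both numbers, and Psmb10 was lower at both, by -0.03 and -0.15.

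Other immune genes were read beside this. The leukocyte marker Ptprc was at most 0.00714 FPKM. The list of immune markers summed to 5.81 and 6.21 FPKM in IVF and 11.0 and 10.7 FPKM in SCNT. Most of that sum was Cd68, a lysosomal protein of macrophages, at 5.204 and 5.88 FPKM in IVF against 7.90 and 10.1 FPKM in SCNT. Both SCNT libraries of Cd68 lay above both IVF libraries, as they did for 18.3% of all tested genes. Cd3e was at most 0.110 FPKM, Lyz2 at most 0.365 FPKM, and Cd74 at most 0.425 FPKM apart from 2.69 FPKM in SCNT 1. The part of immune cells, if any were present, in the Psmb9 values was not tested. Exons of Psmb9 overlap those of Tap1, which encodes a subunit of the peptide transporter for MHC class I, on the opposite strand. Tap1 had 7.04 and 5.30 FPKM in IVF against 4.96 and 3.26 FPKM in SCNT, a difference of -0.50 in the other direction. The use of strand in the values was not given in the sources used here, and without it reads from the shared stretch cannot be told apart.

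Of the list for MHC class I processing and interferon response, 12 genes were in the table, 6 were tested and 0 passed with limma. At an unadjusted limma p under 0.05, 1 gene was lower, as were 2.84% of all tested genes. That gene was H2-K1, a classical MHC class I heavy chain, with 123 and 105 FPKM in the IVF libraries and 69.0 and 58.9 FPKM in the SCNT libraries and a difference of -0.82 ± 0.20 (SE) (limma adjusted p = 0.439). H2-D1, another heavy chain, had 51.9 and 55.1 FPKM in IVF against 101 and 65.2 FPKM in SCNT, a difference of 0.60 the other way. The pair belongs to a family of very similar and polymorphic genes, so the division of reads among them is uncertain.

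The forms of other tissues were near the floor of the filter. Psma8, the alpha subunit of the testis proteasome, had 0.821 and 1.36 FPKM in the IVF libraries and 0.816 and 1.06 FPKM in the SCNT libraries. Psmb11, the beta subunit of thymus epithelium, had 1.27 and 2.38 FPKM in the IVF libraries and 1.498 and 1.69 FPKM in the SCNT libraries. The groups overlapped for both genes.

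**Figure D2:**
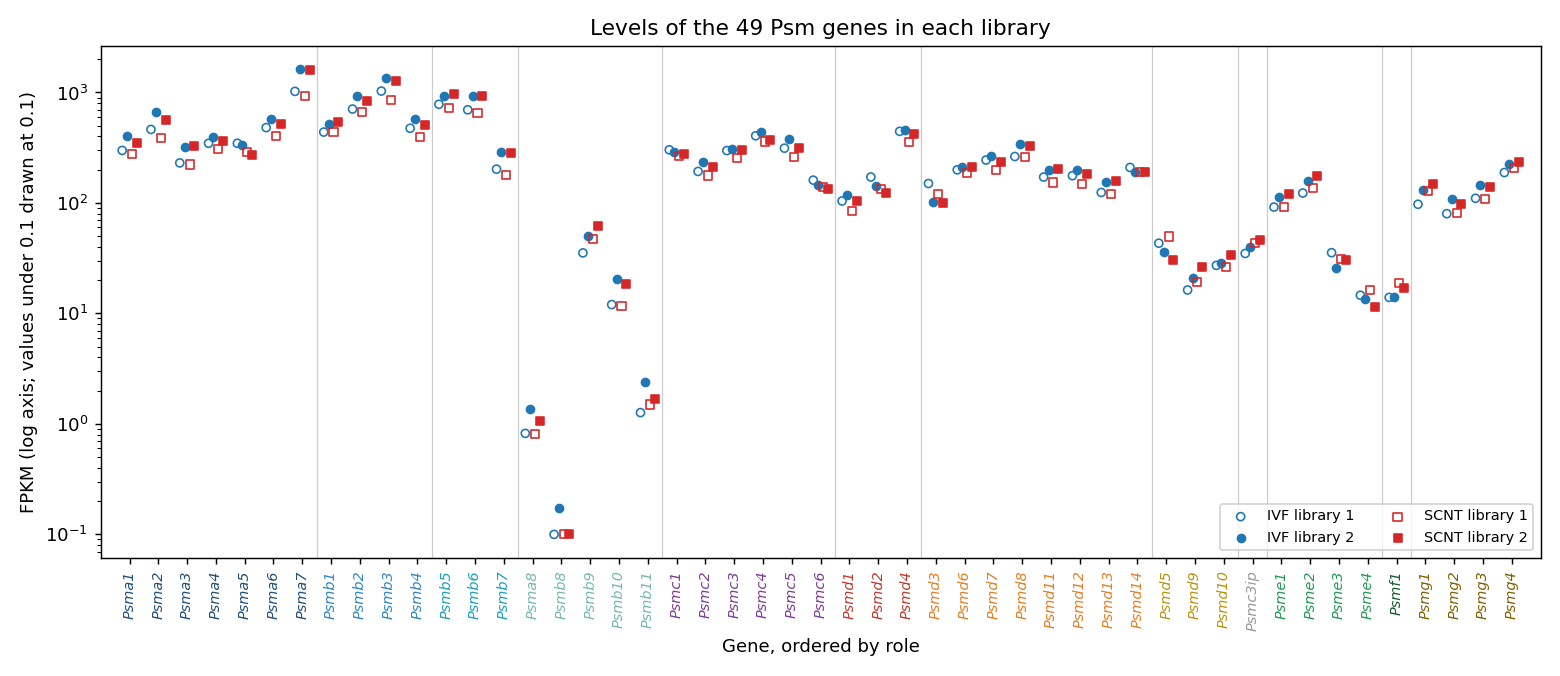
FPKM of each of the 49 Psm genes in each library on a log axis, with genes ordered by role and grouped by vertical lines, circles for IVF and squares for SCNT, and open symbols for library 1 and filled symbols for library 2. Subunits of the core and cap lie between 84.1 and 1625 FPKM, the inducible and tissue forms below them, nearest for Psmb9 at up to 61.5 FPKM, and the groups lie close together for each gene.

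The ATPase ring at the base of the cap unfolds substrates. All 6 of its genes had estimates below 0, with a median of -0.14, and both SCNT libraries lay below both IVF libraries for 3 of them, where 15.1% of all tested genes and 8.16% of abundant ones did so. Psmc4, the most abundant, had 405 and 439 FPKM in the IVF libraries and 359.7 and 369.9 FPKM in the SCNT libraries, a difference of -0.21 ± 0.19 (SE). Psmc6, the least abundant, had 161 and 144.6 FPKM in the IVF libraries and 140.0 and 134 FPKM in the SCNT libraries. Psmc1 had 303 and 288 FPKM in IVF against 266 and 277 FPKM in SCNT. These are the 3 genes without overlap, although for Psmc1 and Psmc6 the gap between groups was narrower than the distance within a group. Psmc5 had 313 and 377 FPKM in IVF against 262 and 313 FPKM in SCNT, so the lower IVF and the higher SCNT library were level, with a difference of -0.26 ± 0.22 (SE). ATPase genes were more even than the alpha or beta genes, with the most abundant exceeding the least abundant by 2.52 and 3.04 times in IVF and 2.57 and 2.76 times in SCNT.

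Among the members, the large scaffold and receptor subunits of the base showed the lowest median of any role, -0.25. All 3 were without overlap between groups, as were 15.1% of all tested genes and 8.16% of abundant ones in this direction. Psmd2, a docking scaffold for ubiquitin shuttle proteins, had 172 and 142 FPKM in the IVF libraries and 134 and 123 FPKM in the SCNT libraries. Psmd1, the other large scaffold, had 104 and 119 FPKM in the IVF libraries and 84.1 and 104 FPKM in the SCNT libraries. Psmd4, a ubiquitin receptor and the most abundant of the Psmc and Psmd genes, had 445 and 454 FPKM in the IVF libraries and 354 and 417 FPKM in the SCNT libraries. For each of them SCNT was lower at both numbers. Differences were -0.28 ± 0.20 (SE), -0.25 ± 0.20 (SE) and -0.22 ± 0.20 (SE), with limma adjusted p of 0.934, 0.967 and 0.992. For all 3 the gap between groups was narrower than the distance within a group. The separation of Psmd1 was the narrowest, at 103.5 FPKM in the higher SCNT library and 104.2 FPKM in the lower IVF library. Adrm1, a ubiquitin receptor outside the symbol pattern, had 493 and 400 FPKM in IVF against 419 and 418 FPKM in SCNT. Its difference was -0.09 ± 0.21 (SE), and its groups overlapped.

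The lid carries the enzyme that cuts ubiquitin chains off the substrate. Its 8 genes among the members all had estimates below 0, from -0.24 for Psmd7 to -0.01 for Psmd13, with a median of -0.07. Psmd7, the partner of the deubiquitinase in the lid, had 245 and 265 FPKM in the IVF libraries and 197 and 234 FPKM in the SCNT libraries. It was the lid gene without overlap, although its gap between groups was narrower than the distance within either group. Its difference was -0.24 ± 0.20 (SE) (95% interval -0.75 to 0.26). Psmd14, the deubiquitinase itself, differed by -0.07, with -0.15 between the libraries numbered 1 and 0.00930 between those numbered 2. The lid genes Psmd3, Psmd6, Psmd8, Psmd11 and Psmd12 differed by -0.17, -0.06, -0.03, -0.07 and -0.18.

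Chaperones that build the base, Psmd5, Psmd9 and Psmd10, share the Psmd symbol but leave before the particle is finished, and 1 of the 3 had an estimate below 0. Psmd9 was the least abundant Psmd gene with 16.3 and 20.8 FPKM in the IVF libraries and 19.1 and 26.3 FPKM in the SCNT libraries, a difference of 0.27 ± 0.24 (SE), higher in SCNT at both numbers and with overlapping groups. Psmd10 differed by 0.11 and Psmd5 by -0.01. Psmc3ip matches the pattern by its symbol, but its protein is a partner of recombinases in meiosis and no subunit. It had 34.9 and 39.7 FPKM in the IVF libraries and 43.4 and 46.5 FPKM in the SCNT libraries, with both SCNT libraries above both IVF libraries and a difference of 0.26 ± 0.18 (SE) (limma adjusted p = 0.915).

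**Figure D3:**
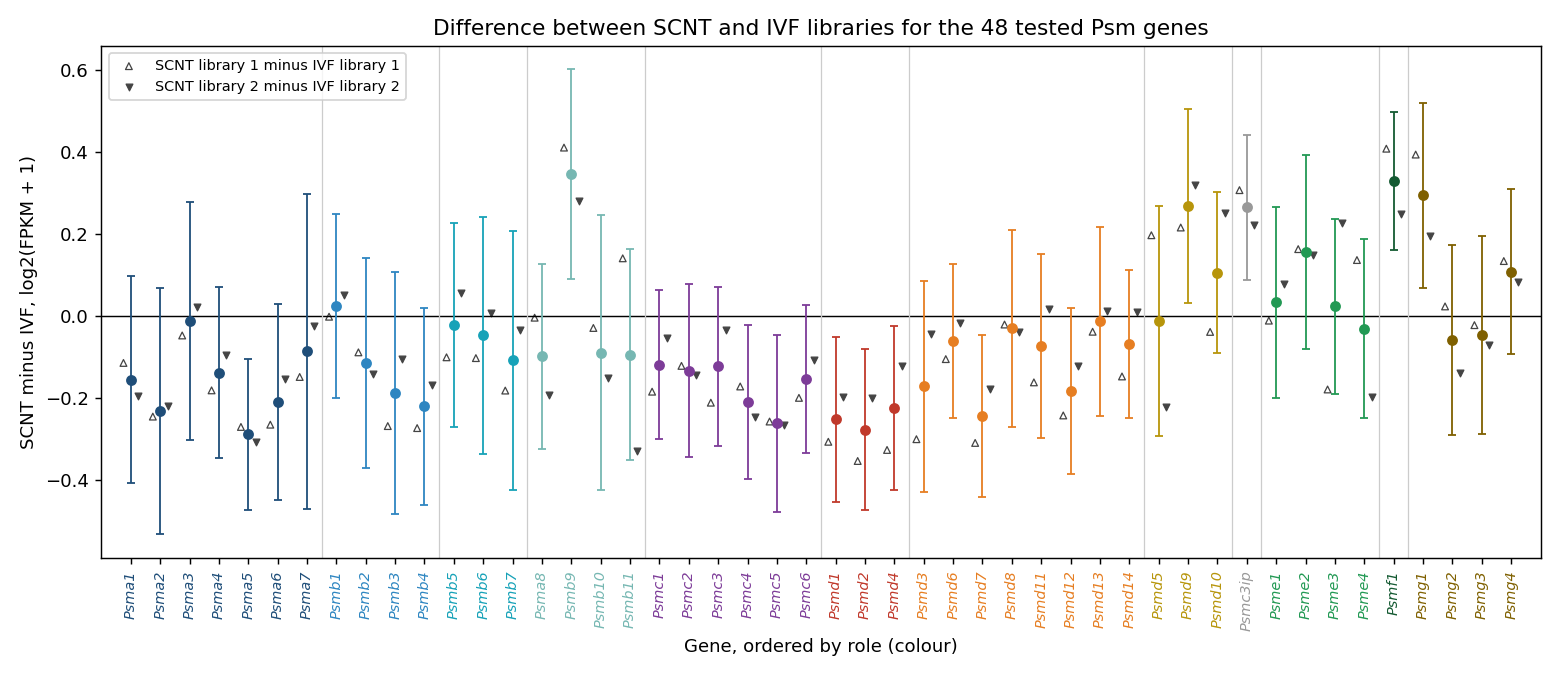
Circles with bars are the limma difference between SCNT and IVF with its standard error on the log2(FPKM + 1) scale for each of the 48 tested Psm genes, coloured and ordered by role, and triangles are the differences within library number 1 (open) and 2 (filled). Alpha, ATPase and base subunits lie below 0, the base chaperone Psmd9, the inhibitor Psmf1, the chaperone Psmg1 and Psmb9 lie above it, and no gene passed the test.

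Core and cap genes differed in level more than the groups did. The median core subunit stood at 469 and 577 FPKM in IVF and 396 and 529 FPKM in SCNT, and the median cap subunit at 199 and 213 FPKM in IVF and 185 and 211 FPKM in SCNT. The core to cap ratio of these medians was 2.35 and 2.71 in IVF and 2.14 and 2.51 in SCNT, so the groups overlapped. All members together took 1.33% and 1.54% of summed FPKM in IVF and 1.16% and 1.47% in SCNT, again with overlap.

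Activators dock on the core in place of the cap. Psme1 and Psme2 encode the interferon-inducible activator that works with the immunoproteasome. Psme2 had 123 and 159 FPKM in the IVF libraries and 138 and 177 FPKM in the SCNT libraries, and its difference was 0.16 ± 0.24 (SE). Psme1 had 91.8 and 114 FPKM in the IVF libraries and 91.1 and 121 FPKM in the SCNT libraries, with a difference of 0.03 ± 0.23 (SE). Both overlapped between groups, and Psme2 has a near-identical copy, Psme2b, that could share its reads. Psme4, which encodes a large nuclear activator, was the least abundant of the activator and inhibitor genes with 14.6 and 13.4 FPKM in the IVF libraries and 16.2 and 11.5 FPKM in the SCNT libraries, and the nuclear activator Psme3 differed by 0.02.

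Psmf1 encodes PI31, a protein first described as an inhibitor of the core. It had 13.97 and 14.08 FPKM in the IVF libraries and 18.9 and 16.9 FPKM in the SCNT libraries. Values in IVF were nearly equal, and both SCNT libraries were higher. The difference was 0.33 ± 0.17 (SE) (95% interval -0.10 to 0.76, limma adjusted p = 0.852), with 0.41 between the libraries numbered 1 and 0.25 between those numbered 2. It kept this sign when any library was left out, between 0.25 and 0.40.

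Psmg proteins are chaperones that line up the alpha ring while the core is built, with Psmg1 paired to Psmg2 and Psmg3 to Psmg4. Psmg1 had 97.3 and 130.1 FPKM in the IVF libraries and 128 and 149 FPKM in the SCNT libraries. Psmg2 had 80.0 and 108 FPKM in the IVF libraries and 81.3 and 97.9 FPKM in the SCNT libraries. The ranges of each gene overlapped between groups, and the differences were 0.29 ± 0.23 (SE) for Psmg1 and -0.06 ± 0.23 (SE) for Psmg2. That of Psmg2 had no steady sign, with 0.02 between the libraries numbered 1 and -0.14 between those numbered 2. Psmg4 was the most abundant, with 189 and 223 FPKM in the IVF libraries and 207 and 236 FPKM in the SCNT libraries. Psmg3 had 110.3 and 146 FPKM in the IVF libraries and 109 and 139 FPKM in the SCNT libraries. Their differences were 0.11 and -0.05, within the spread between replicates. As a percent of the median core subunit in the same library, a ratio chosen after the values were seen, Psmg1 stood at 20.8% and 22.5% in IVF and at 32.3% and 28.2% in SCNT. That median was itself lower in SCNT at each number, with 469 and 577 FPKM in IVF against 396 and 529 FPKM in SCNT. Its part in the ratio was not tested, and the ratio was not taken for the other Psmg genes singly. All 4 Psmg genes together came to 6.33% and 6.16% of the summed core FPKM in IVF and 7.82% and 6.66% in SCNT.

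**Figure D4:**
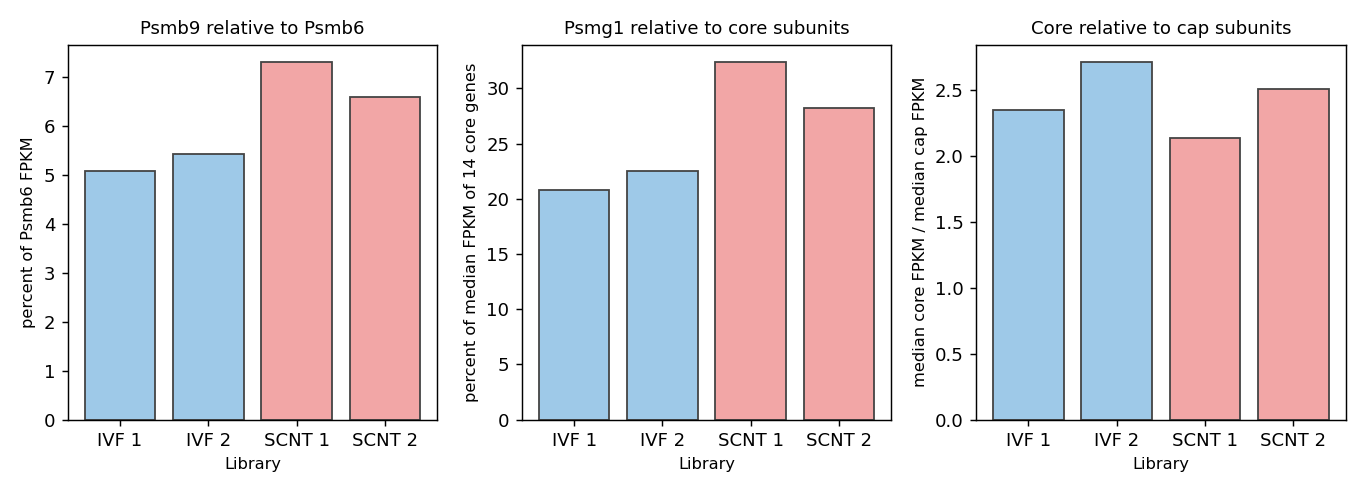
Bars give, for each library, Psmb9 as a percent of Psmb6, Psmg1 as a percent of the median of the 14 core genes, and the ratio of the median core to the median cap gene, all from FPKM. Both SCNT libraries are above both IVF libraries in the left and middle panels (7.29% and 6.57% against 5.07% and 5.42% for Psmb9), and the core to cap ratios overlap. The median core gene, the denominator of the middle panel, was itself lower in SCNT at each library number. Psmb10 as a percent of Psmb7, which is not drawn, also overlapped between groups.

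Upstream sequences were read because estimates of most subunits were below 0 and those of most chaperones, activators and the inhibitor were not. RefSeq's promoter table, on GRCm38.p6 and not the build of the files, matched 41 of the 49 members, and the 250 bases before the start were searched on both strands. Of these windows 12 were free of annotated exons. The others overlap exons of the member itself or of a neighbouring gene, so the counts below include transcribed sequence. The 4 motifs were chosen with the results known. They are CCAAT, bound by NF-Y, CCGGAAG, bound by ETS factors, GGGCGG, bound by Sp factors, and TGACNNNGC, the core of the antioxidant response element through which Nfe2l1 and Nfe2l2 act. TGACNNNGC can overlap the GC box, as in Psmd9. Shown are an alpha and a catalytic gene of the core, a pair of cap genes without overlap between groups, and the inhibitor, each window free of annotated exons, with matches in capitals.
Psma6, chr12:55383972-55384221, plus strand: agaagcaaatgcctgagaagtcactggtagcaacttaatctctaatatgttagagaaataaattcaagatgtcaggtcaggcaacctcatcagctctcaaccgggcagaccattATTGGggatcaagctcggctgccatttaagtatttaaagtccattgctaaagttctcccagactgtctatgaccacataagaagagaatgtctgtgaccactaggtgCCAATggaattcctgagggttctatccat
Psmb6, chr11:70525107-70525356, plus strand: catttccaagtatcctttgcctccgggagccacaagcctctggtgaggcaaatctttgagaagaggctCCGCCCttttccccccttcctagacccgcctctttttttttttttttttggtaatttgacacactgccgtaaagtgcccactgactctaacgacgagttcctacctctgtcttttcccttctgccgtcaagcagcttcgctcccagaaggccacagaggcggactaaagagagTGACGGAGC
Psmd2, chr16:20651402-20651651, plus strand: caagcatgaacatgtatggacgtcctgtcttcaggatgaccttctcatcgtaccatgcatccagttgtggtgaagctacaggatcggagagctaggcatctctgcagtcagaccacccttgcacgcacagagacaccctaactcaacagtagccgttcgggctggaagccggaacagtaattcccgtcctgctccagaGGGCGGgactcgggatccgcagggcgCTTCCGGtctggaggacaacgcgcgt
Psmd4, chr3:95042615-95042864, minus strand: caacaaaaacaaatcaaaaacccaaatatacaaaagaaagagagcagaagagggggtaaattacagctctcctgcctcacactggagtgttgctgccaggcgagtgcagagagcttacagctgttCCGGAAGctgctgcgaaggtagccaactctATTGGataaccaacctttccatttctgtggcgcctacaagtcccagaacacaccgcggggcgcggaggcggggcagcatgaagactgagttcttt
Psmf1, chr2:151741311-151741560, minus strand: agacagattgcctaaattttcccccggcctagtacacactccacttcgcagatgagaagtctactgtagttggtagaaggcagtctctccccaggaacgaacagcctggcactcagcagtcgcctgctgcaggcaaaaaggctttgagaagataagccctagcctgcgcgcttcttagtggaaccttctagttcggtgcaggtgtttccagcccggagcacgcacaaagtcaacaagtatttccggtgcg

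The ETS motif was in 9 of 18 cap windows (50.0%), that of Psmc3ip, no subunit, among them, and in 0 of 15 core windows. It was in 3 of 8 windows (37.5%) of activators, inhibitor and chaperones. The shares were 15.4% of 7730 windows of tested genes and 7.05% of all 27025 windows. In the printed windows the ETS motif stands close to the start of Psmd2 and farther out in Psmd4. The CCAAT box was in 8 of 15 core windows (53.3%) and 6 of 18 cap windows (33.3%). It was in 1 of 8 windows (12.5%) of activators, inhibitor and chaperones. The shares were 37.4% of windows of tested genes and 34.5% of all windows. Psma6 holds the CCAAT box on both strands. The GC box was in 22 of 41 member windows (53.7%), against 60.4% of windows of tested genes and 32.9% of all. The antioxidant response core was in 5 of 41 (12.2%), against 12.6% and 10.1%, and in Psmb6 it ends at the start site. The Psmf1 window held none of the 4 motifs. A match is a run of letters and not a bound site.

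In the GENCODE M21 annotation, on GRCm38, exons of 12 of the 49 members overlap exons of a gene on the opposite strand, among them Psma5, Psmb9, Psmd1 and Psmd9. A protein-coding gene starts within 1000 bases on the opposite strand, head to head, for 8 members. Psma2 and Mrpl32, which encodes a mitochondrial ribosomal protein, start 75 bases apart and had opposite estimates, -0.23 and 0.23. The sign was the same in 6 of the 8 pairs.

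Genes that work with the particle were counted from lists. Of the proteasome-associated list, 9 of 13 symbols were in the table and tested, 0 passed with limma, 0 had an unadjusted p under 0.05, and 8 of 9 estimates were below 0, with a median of -0.11, where 47.8% of all tested genes and 39.3% of abundant ones were below 0. Txnl1, a thioredoxin-like protein of the cap, had 52.7 and 51.0 FPKM in IVF against 45.2 and 43.2 FPKM in SCNT, a difference of -0.22 without overlap. Uchl5 and Usp14, the deubiquitinases that visit the cap, differed by -0.19 and 0.12.

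Shuttle and unfoldase genes bring ubiquitinated proteins to the particle. Of 11 tested, 0 passed with limma and 1 was higher at an unadjusted p under 0.05, as were 4.25% of all tested genes. The higher gene was Rad23b, which encodes a shuttle that binds ubiquitin chains and the proteasome. Rad23b had 14.5 and 12.1 FPKM in the IVF libraries and 27.8 and 25.6 FPKM in the SCNT libraries. Both SCNT libraries lay far above both IVF libraries. The difference was 0.96 ± 0.18 (SE) (limma adjusted p = 0.320). Ddi2, a protease that activates Nfe2l1, had 4.74 and 4.49 FPKM in IVF against 3.11 and 3.51 FPKM in SCNT, and Ubqln4, another shuttle, differed by -0.18.

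Of 14 tested genes for ubiquitin and its conjugation, 0 passed with limma. At an unadjusted limma p under 0.05, 1 was higher, as were 4.25% of all tested genes. Estimates were above 0 for 12 of the 14, as they were for 52.2% of all tested genes and 60.7% of abundant ones. Ube2d1, a ubiquitin-conjugating enzyme, had 8.86 and 9.91 FPKM in the IVF libraries and 14.1 and 13.3 FPKM in the SCNT libraries. Both SCNT libraries of Ube2d1 lay above both IVF libraries, with a difference of 0.50, and the conjugating enzyme Ube2r2 differed by 0.23.

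The regulators of proteasome genes were divided in direction. Of 11 tested, 0 passed with limma, 0 had an unadjusted p under 0.05, 6 estimates were above 0 and 5 below, and the median was 0.0087. Nfe2l1, the transcription factor known to raise all proteasome genes together when the particle is inhibited, is named outside the rule and had 19.8 and 8.53 FPKM in the IVF libraries and 17.3 and 9.99 FPKM in the SCNT libraries. Its libraries paired by number and not by group. Nfyb, a subunit of the CCAAT-binding factor, had 19.7 and 20.2 FPKM in IVF against 16.0 and 15.3 FPKM in SCNT, a difference of -0.33 without overlap, and Ngly1, which processes Nfe2l1 protein, differed by 0.22.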

How the data were processed

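The authors deposited 1 table per library, with 1 value per gene symbol. The values were taken to be FPKM as deposited, which is inferred from Cufflinks among the tools and from the values, since the headers name no unit. Per the submitters' processing notes, the tools were TopHat2 2.0.14, Bowtie2 2.1.0 and Cufflinks 2.2.1, and the genome build was mm9. The annotation, the use of strand, the treatment of reads shared with processed pseudogenes and scaling across libraries were not given in the sources used here. Per the labels' protocols, lysates of whole embryos went directly into cDNA synthesis with a SMARTer kit, and the amplified cDNA was sheared for the libraries.

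Libraries were grouped by their titles. The test was limma 3.58.1 (R 4.3.3), run on genes with a mean of at least 1 FPKM over the 4 libraries. Values were log2(FPKM + 1), moderation used a trend of variance with mean, the group was the sole term, and p-values were adjusted by Benjamini-Hochberg over every gene tested. The code was tested on simulated data. No count test was run, since the values are not counts. The members and lists were chosen with earlier results of these data known. Named members were any past the threshold (none), the catalytic subunits with their inducible counterparts, the testis and thymus forms, Psmc3ip, and in each role up to 4 with the smallest unadjusted p and those of highest and lowest mean FPKM. Of each pathway list, up to 3 with the smallest unadjusted p were named, except where an item is not reported here, and any gene outside these rules was chosen after its values were seen. Promoter sequences came from RefSeq, and gene overlaps and starts from GENCODE M21, both on GRCm38. The alternatives were 14 settings from a written list and 2 added after seeing the data.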

Additional observations from a re-analysis of the deposited data

How the results depend on the processing

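Under none of the alternatives run did a proteasome member pass the limma threshold, and the lowest adjusted p of any member was 0.238, with the replicate number as a block. That fit had 7 of the 48 tested members at an unadjusted limma p under 0.05 (Psmb9, Psma5, Psmc5, Psmg1, Psmd2, Psmf1 and Psma2), against 0 without the block. Of all 11039 tested genes it had 1832, against 783 without the block, so the share of the members was no larger than that of all genes. The differences between numbers 2 and 1 correlated between the groups with a Pearson r of 0.31 over 11039 genes and 0.81 over the 48 tested members, and genes are not independent replicates. With 2 pairs and no label that says so, the numbers were not taken as a pairing. Members wholly lower in SCNT numbered 8, but 14 with the common sum without short RNA genes and 16 with quantile normalization. Leaving out each replicate gave 11 to 35 lower and, in place of 2, 3 to 15 higher. In those fits 1 library stands for a group, which makes a lack of overlap easier to reach for any gene. The shares of all tested genes without overlap at these settings are not given, so these counts do not set the members apart. The 31 subunits had 30 or 31 estimates below 0 under every setting run that kept all libraries, and 17 to 31 when a replicate was left out. The medians then ran from -0.33 to 0.097 for the core, -0.20 to -0.056 for the cap and -0.013 to 0.20 for the activators, inhibitor and chaperones, the last of which was also at -0.021 with the common sum. Over all genes, 8 were higher and 6 lower. These became 5 higher without a filter, 2 higher with short RNA genes left out, 12 lower with the robust prior, and 13 to 31 higher and 11 to 30 lower when a replicate was left out.

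Of 33 named and tested members, 16 changed sign when a replicate was left out. Their ranges were -0.50 to 0.038 for Psma2, -0.48 to 0.31 for Psma7, -0.29 to 0.088 for Psma8, -0.31 to 0.083 for Psmb2, -0.47 to 0.092 for Psmb3, -0.23 to 0.19 for Psmb5, -0.31 to 0.22 for Psmb6, -0.44 to 0.22 for Psmb7, -0.45 to 0.27 for Psmb10, -0.38 to 0.19 for Psmb11, -0.17 to 0.23 for Psme1, -0.030 to 0.34 for Psme2, -0.26 to 0.20 for Psme4, -0.27 to 0.16 for Psmg2, -0.25 to 0.16 for Psmg3 and -0.013 to 0.23 for Psmg4. Psme1 also turned to -0.021 with the common sum. The cause was not tested. The unknown depth limits what can be said of low genes such as Psmb8 and Psma8.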

Other observations

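The cytosolic chaperonin and the abundant heat-shock chaperones, read as other large protein machines of the cell, had estimates mostly above 0. All 13 listed genes were tested, 0 passed with limma, 0 had an unadjusted p under 0.05, and 12 of 13 estimates were above 0, with a median of 0.16. Of all tested genes 52.2% were above 0, with a median of 0.01, and of those with a mean of at least 100 FPKM 60.7% were, with a median of 0.05. Hspe1, the mitochondrial co-chaperonin, had 732 and 786 FPKM in IVF and 1075 and 953 FPKM in SCNT, with both SCNT libraries higher. Cct4, a subunit of the cytosolic chaperonin ring, had 349 and 310 FPKM in IVF and 443 and 358 FPKM in SCNT. Cct5, of the same ring, had 461 and 338 FPKM in IVF and 567 and 417 FPKM in SCNT, with overlapping groups. The differences were 0.42, 0.28 and 0.30 on the log2(FPKM + 1) scale. Hsp90aa1, the only member with an estimate below 0, was named after its values were seen and had 1931 and 2053 FPKM in IVF and 1740 and 1865 FPKM in SCNT. Whether the chaperonin and proteasome lists differ from each other was not tested.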
